A study of Homo sapiens with 17 samples.

Results

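The heat shock chaperones of the cytosol and mitochondria were followed in Ishikawa cells, a line derived from a human endometrial adenocarcinoma used to model the epithelium of the uterine lining. The set held 40 of the 60662 genes in the count table, chosen by symbol as chaperones, co-chaperones and heat shock factors, with the chaperones of the endoplasmic reticulum (ER) left out. HSPA13 is known as a microsome-associated HSP70, which departs from the cytosolic label, and it was kept because the list names it. Total RNA was sequenced after 24 h in 17 samples. Of these, 3 were untreated control cultures in plain medium, 3 were vehicle control cultures whose titles name Nap and ethanol (70% in the labels), 2 received the vehicle Nap alone, and 3 received Nap with progesterone (P4 treated). All were the same cell line, and the labels call the samples of a group biological replicates, so p-values measure the spread between cultures of 1 line. Nap is not defined in the labels or the study's methods, and the labels do not tie a P4 concentration to a library. The treatment protocol lists 0.1 and 1.0 mg/ml P4, while the study's text names another concentration for the sequenced cultures, so no dose is used here. Ethanol is named for the vehicle control and not for the P4 treated cultures, so that the P4 treated and Nap cultures are the pair whose labels differ by P4 alone, and P4 and ethanol cannot be told apart in the comparison with the vehicle control. The other 6 samples have titles that contradict their column names (R_PSAT1 and R_PSAT1_P4, 3 each), so they were given no condition and entered no comparison.

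Heat shock proteins fold new proteins and hold, refold or hand over damaged ones. HSP70 works in cycles of ATP use that J-domain proteins start and nucleotide exchange factors end, and HSP90 receives clients from HSP70 and keeps steroid receptors, the progesterone receptor among them, able to bind hormone. Mitochondria have their own HSP70 and the HSP60 and HSP10 chaperonin, and heat shock factor 1 drives many of the cytosolic genes through repeats of a 3-base unit called the heat shock element.

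Library totals were between 4999521 and 19704493 counts, and the smallest was a vehicle control culture. Values are given below as CPM, the counts scaled to library size after TMM correction, where 3 counts correspond to between 0.152 and 0.60 CPM and cover counting error only. The TMM factors were 0.898 to 0.965 in the P4 treated cultures and 1.01 to 1.05 in the vehicle controls. The 6 epithelial markers (EPCAM, KRT8, KRT18, KRT19, CDH1, CLDN4) were expressed in every culture and summed to 1250 to 1260 CPM in vehicle control and 965 to 1107 CPM in P4 treated cultures. They did not move together. Against the vehicle control, KRT8, KRT18, KRT19 and CLDN4 were lower (log2 fold changes of -0.70, -0.34, -0.35 and -1.42). CDH1 was higher (0.24), and EPCAM did not pass an adjusted p of 0.05 (0.07). Of the 6 stromal markers, DCN and PDGFRB were at or near 0, but the collagens COL1A2 and COL3A1 were expressed, and the list summed to 343 to 358 CPM in vehicle control and 127 to 179 CPM in P4 treated cultures. The 4 immune and the 3 endothelial markers each summed to no more than 1.54 CPM in these 11 cultures. The part of these shifts in the results below was not tested. In bulk RNA, fewer cells of a kind and less RNA per cell cannot be told apart.

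The promoters of the members were read from RefSeq (GRCh38.p14, 250 bases before to 50 after each start site), where 36 of the 40 genes had 49 windows. FKBP4, GRPEL1, HSF1 and HSPA14 had none in the table. The windows were searched on both strands for 2 facing units of the heat shock element, GAANNTTC or TTCNNGAA, and for 3 units in a row, GAANNTTCNNGAA or its reverse complement, which holds both kinds of pair. A pair was present in 20 of the 49 member windows (40.8%) and in 13.5% of all 35116 windows of that length. The row of 3 units was present in 7 member windows (14.3%), those of CHORDC1, DNAJA1, DNAJB6, HSP90AA1, HSP90AB1, HSPA8 and HSPD1, and in 0.49% of all windows. A match of these letters is a description of the sequence and was not tied to binding of any factor. The promoters of 6 members are shown because these genes carry the results below, from 250 bases before to 25 after the first transcribed base, 5′ to 3′ on the gene's strand, with capitals for every pair or row of units. HSPA8, HSP90AA1 and DNAJA1 had the lowest log2 fold changes against the vehicle control, HSPA1B was the inducible HSP70 that rose in the vehicle control, and HSPD1 and HSPE1 lie head to head and moved apart.
HSPA8, chr11:123062112-123062386, minus strand: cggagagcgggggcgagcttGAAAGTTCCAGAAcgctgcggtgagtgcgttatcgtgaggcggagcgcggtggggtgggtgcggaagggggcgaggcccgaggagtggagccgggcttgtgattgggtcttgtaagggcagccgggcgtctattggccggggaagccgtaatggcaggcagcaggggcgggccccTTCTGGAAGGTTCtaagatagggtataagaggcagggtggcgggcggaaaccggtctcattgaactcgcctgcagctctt
HSP90AA1, chr14:102087020-102087294, minus strand: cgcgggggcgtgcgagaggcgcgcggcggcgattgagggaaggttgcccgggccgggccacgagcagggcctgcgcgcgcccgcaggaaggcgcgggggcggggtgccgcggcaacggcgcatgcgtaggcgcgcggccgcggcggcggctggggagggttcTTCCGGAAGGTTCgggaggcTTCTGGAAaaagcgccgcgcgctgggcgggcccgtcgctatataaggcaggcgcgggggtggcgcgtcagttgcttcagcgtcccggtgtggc
DNAJA1, chr9:33025023-33025297, plus strand: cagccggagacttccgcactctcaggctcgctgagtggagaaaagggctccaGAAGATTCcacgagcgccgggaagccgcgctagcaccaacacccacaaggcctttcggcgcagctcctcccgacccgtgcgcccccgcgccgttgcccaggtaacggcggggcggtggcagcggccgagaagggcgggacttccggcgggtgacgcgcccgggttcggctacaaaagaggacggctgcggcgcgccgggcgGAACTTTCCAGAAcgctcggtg
HSPA1B, chr6:31827488-31827762, plus strand: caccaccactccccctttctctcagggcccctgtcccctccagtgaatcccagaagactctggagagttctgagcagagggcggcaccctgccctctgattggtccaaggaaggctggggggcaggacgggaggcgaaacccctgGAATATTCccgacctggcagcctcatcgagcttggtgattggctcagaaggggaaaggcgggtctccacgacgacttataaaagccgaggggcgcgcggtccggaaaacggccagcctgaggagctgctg
HSPD1, chr2:197499816-197500090, minus strand: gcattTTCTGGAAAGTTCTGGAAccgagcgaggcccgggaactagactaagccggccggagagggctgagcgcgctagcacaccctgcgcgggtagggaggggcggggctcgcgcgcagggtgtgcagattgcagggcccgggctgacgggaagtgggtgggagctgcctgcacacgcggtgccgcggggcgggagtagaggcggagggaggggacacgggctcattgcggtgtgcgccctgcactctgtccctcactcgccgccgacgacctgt
HSPE1, chr2:197500129-197500403, plus strand: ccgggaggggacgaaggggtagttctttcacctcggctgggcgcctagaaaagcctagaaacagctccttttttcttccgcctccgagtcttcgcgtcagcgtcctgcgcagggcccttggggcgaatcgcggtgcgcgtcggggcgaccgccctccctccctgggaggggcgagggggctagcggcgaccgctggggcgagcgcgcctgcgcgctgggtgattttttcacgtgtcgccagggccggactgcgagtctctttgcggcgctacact

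HSPA8 held 2 rows of 3 units, HSP90AA1 1 row with a further pair, and DNAJA1 1 row at position 3 from the start site and a separate pair. Of the 7 genes with a row of 3 units, 5 were lower in P4 treated than in vehicle control cultures (DNAJA1, DNAJB6, HSP90AA1, HSP90AB1 and HSPA8), HSPD1 was higher and CHORDC1 did not pass the test. Of all 39 members tested 19 were lower, as were 26.5% of all genes, and nothing is read from the 7 genes about the motif. HSPA1B held 1 pair, and so did its near-identical neighbour HSPA1A. In HSPD1 the units formed an unbroken run at chr2:197500068-197500085, between the start site of HSPD1 at 197499840 and that of HSPE1 at 197500379, which are 539 bases apart. The run was 294 bases from the HSPE1 start site, outside the HSPE1 window, and neither that window nor the window of a second HSPD1 start site held a pair. The window of HSPA13 held no pair, HSPA9 held 1, and DNAJB4 held 1 at the second of its 2 start sites.

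**Figure D1:**
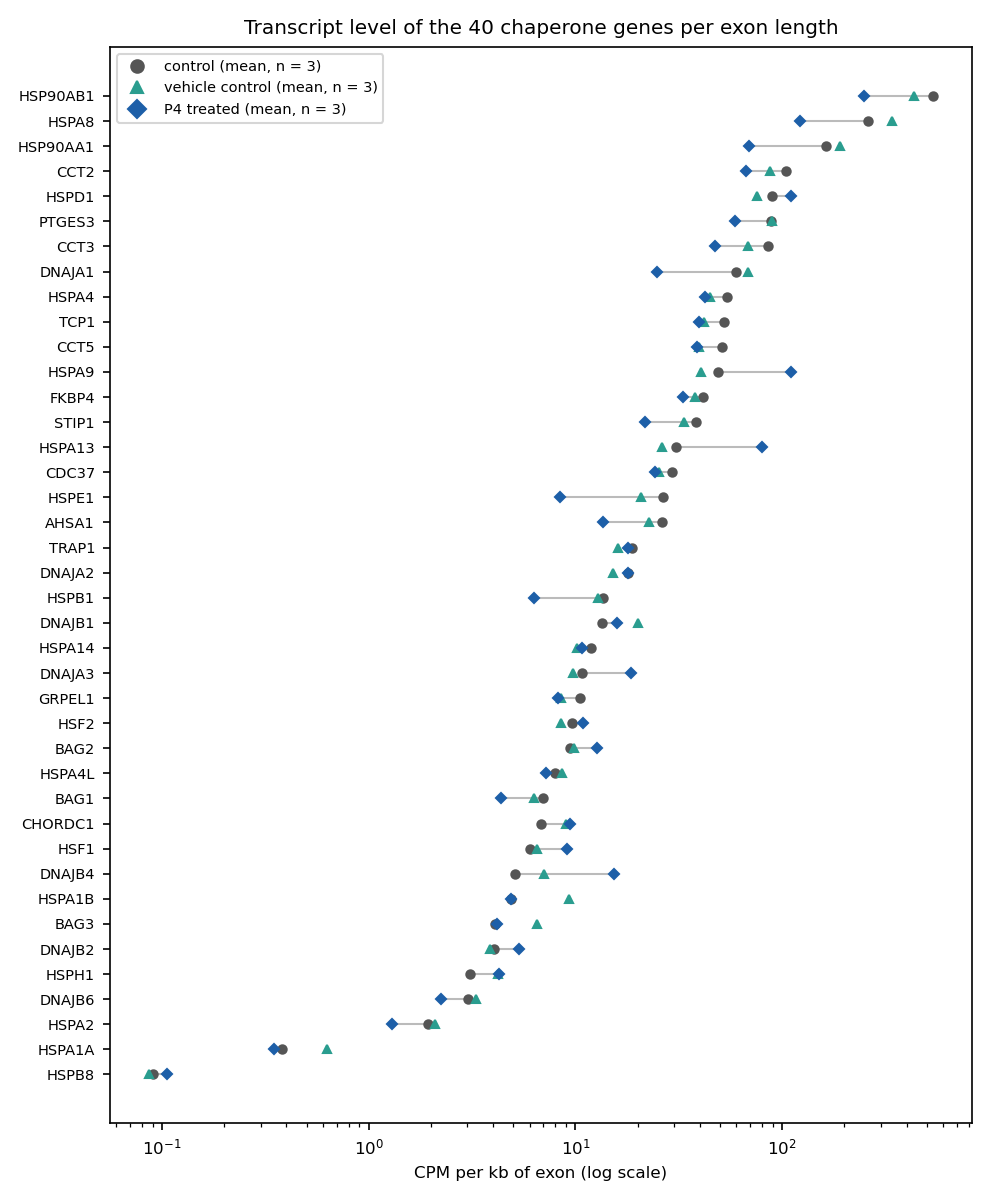
Level of the 40 chaperone genes in CPM per kb of exon on a log axis, ordered by the control mean (circles), with the vehicle control (triangles) and P4 treated means (diamonds), n = 3 cultures each. HSP90AB1 stood at the top with 536 CPM per kb in the control and HSPB8 at the bottom with 0.0906.

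Per kb of exon, the constitutive chaperones stood highest in the untreated control. HSP90AB1, the constitutive cytosolic HSP90, had a mean level of 536 CPM per kb and HSPA8, the constitutive cytosolic HSP70, 260. HSP90AA1, the inducible HSP90, followed with 164 and the chaperonin subunit CCT2 with 104. The inducible HSP70 genes were far down the order, with 4.88 CPM per kb for HSPA1B and 0.379 for HSPA1A, and the small heat shock protein HSPB8 was lowest at 0.0906. The places of HSPA1A and HSPA1B are uncertain, because counting unique alignments can lower the counts of near-identical copies. In P4 treated cultures HSP90AB1 was again highest with 249 CPM per kb, followed by HSPA8 (122), the mitochondrial chaperones HSPD1 (111) and HSPA9 (110), HSPA13 (80.2) and HSP90AA1 (69.3).

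Against the vehicle control, P4 treatment was accompanied by lower transcripts of the main cytosolic HSP70 and HSP90 chaperones and most of their partners, and by higher transcripts of the mitochondrial HSP70 (HSPA9), its partner DNAJA3 and HSP60 (HSPD1). The mitochondrial class was not uniform, as HSPE1 was lower and GRPEL1 and TRAP1 did not pass the test. Of 39 members tested, 28 (71.8%) were called at an adjusted p under 0.05 (edgeR quasi-likelihood test), 19 lower and 9 higher. Among all 16540 genes tested, 53.0% were called, 26.5% lower and 26.6% higher, so most genes moved and single calls were common. The median log2 fold change of the members was -0.21, beside -0.013 over all genes tested. In all, 5 genes fell by more than 1 log2 unit (HSPA8, HSP90AA1, DNAJA1, HSPE1 and HSPB1) and HSPA13, HSPA9 and DNAJB4 rose by more than 1. HSPB8, a small heat shock protein that works with BAG3, had 1 to 7 counts per library and was not tested.

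Against the untreated control, 29 of the 39 members (74.4%) were called, 20 lower and 9 higher, where 54.8% of 16620 genes were called, 28.0% lower and 26.8% higher. Against Nap, 27 (69.2%) were called, 19 lower and 8 higher, where 49.7% of 16987 genes were called, 24.9% lower and 24.8% higher. These comparisons share the P4 treated cultures, so they are not independent. The 2 Nap cultures give less precision, and without Nap replicate 1 the count was 18.

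**Figure D2:**
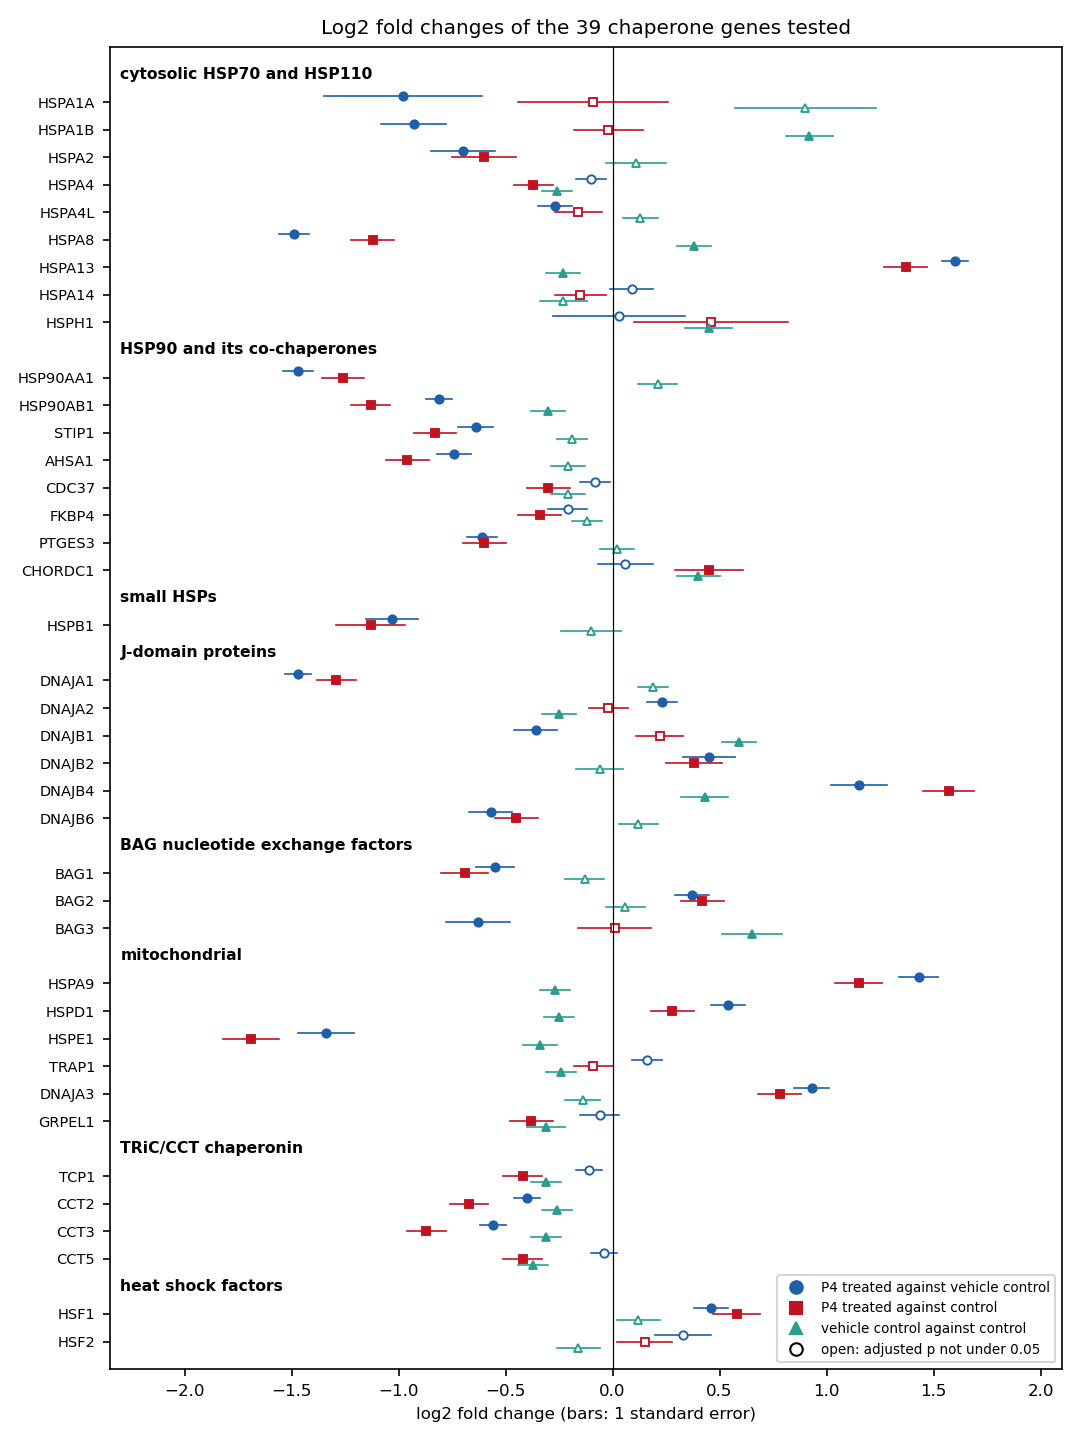
Log2 fold change of the 39 tested chaperone genes by role, for P4 treated against vehicle control (circles), P4 treated against control (squares) and vehicle control against control (triangles), with bars of 1 standard error. Filled symbols passed an adjusted p of 0.05 (edgeR), and HSPA8, HSP90AA1, DNAJA1 and HSPE1 lie at -1.34 or below against the vehicle control while HSPA13 and HSPA9 lie at 1.43 or above.

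Among the 9 HSP70 and HSP110 genes, 5 fell, HSPA13 rose and 3 did not pass the test against the vehicle control. The share called was 66.7%, beside 53.0% of all genes. HSPA8 (ENSG00000109971, chr11:123057489-123063230 in GRCh38), which folds new proteins and strips clathrin coats, had 643, 542 and 584 CPM in the P4 treated cultures, 1619, 1601 and 1703 in the vehicle controls, 1344, 1130 and 1313 in the controls and 1435 and 1136 with Nap. Each P4 treated culture lay below every other culture, and the vehicle controls lay above the controls. The log2 fold change was -1.49 ± 0.07 (SE, adjusted p = 1.7e-08) against the vehicle control, -1.12 ± 0.10 (adjusted p = 8.5e-08) against the control and -1.15 ± 0.11 (adjusted p = 8.5e-06) against Nap.

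HSPA13 (chr21:14371115-14383484) moved the other way. Its CPM was 335, 322 and 352 after P4 treatment, 110, 111 and 107 in the vehicle controls, 123, 118 and 144 in the controls and 120 and 123 with Nap. The P4 treated cultures lay above all others, the control and Nap cultures overlapped, and the log2 fold change was 1.60 ± 0.06 (adjusted p = 3e-09) against the vehicle control, a 3.04-fold higher level, 1.37 ± 0.10 against the control and 1.44 ± 0.08 against Nap (adjusted p = 4e-09 and 4.2e-07). No other member rose as far against the vehicle control.

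The inducible HSP70 gene HSPA1B (chr6:31827735-31830255) had 9.32, 15.5 and 12 CPM in P4 treated, 24.5, 21.6 and 24.0 in vehicle control, 12.8, 11.3 and 12.8 in control and 10.1 and 11.0 in Nap cultures. The vehicle controls stood apart from all other groups, and P4 treated and control cultures overlapped. It fell by 0.93 ± 0.15 on the log2 scale against the vehicle control (adjusted p = 2.5e-04), while the difference from the control was -0.02 ± 0.16 and did not pass the test. HSPA1A had 0.687 to 1.14 CPM after P4 and 0.765 to 2.21 in the vehicle controls. Its call (-0.98 ± 0.37, adjusted p = 0.0389) was lost with DESeq2 (adjusted p = 0.216), with the replicate block (adjusted p = 0.0556) and without P4 treated replicate 1 or 2 or vehicle control replicate 2 or 3 (adjusted p = 0.0534 to 0.255), and without vehicle control replicate 2 the log2 fold change was -0.66. HSPA1A and HSPA1B are near-identical copies, and keeping only unique alignments can lower the counts of both, so both levels are uncertain. In addition, 36.5% of the HSPA1B exon bases also belong to an overlapping gene on the same strand.

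HSPA2, a testis-enriched HSP70, fell by 0.70 ± 0.15 and HSPA4L, an HSP110 family member, by 0.27 ± 0.08 on the log2 scale against the vehicle control. The call of HSPA4L was lost without P4 treated replicate 3 or vehicle control replicate 3, and its difference from the control did not pass (-0.16 ± 0.11). HSPA4, an HSP110 that exchanges nucleotide on HSP70, did not pass there (-0.10 ± 0.07) but was lower against the control (-0.37 ± 0.09, adjusted p = 0.00251). The ribosome-associated HSPA14 passed in no comparison of P4 treated cultures. HSPH1, the inducible HSP110, had 21.8, 53.7 and 32.3 CPM in the 3 P4 treated cultures, a wider spread than the 32.5 to 39.4 CPM of the vehicle controls, and its difference of 0.03 ± 0.31 turned to -0.35 and passed the test (adjusted p = 0.0433) without P4 treated replicate 2. Against the control, 3 genes of the class fell (HSPA2, HSPA4 and HSPA8) and HSPA13 rose, 44.4% beside 54.8% of all genes. Against Nap, 3 of the 9 were called (33.3%, beside 49.7% of all genes), HSPA8 and HSPA4 lower and HSPA13 higher. HSPA2 did not pass against Nap (-0.40 ± 0.16, adjusted p = 0.0579), but did with upper-quartile scaling (-0.48, adjusted p = 0.0284). Nor did HSPA4L (-0.12 ± 0.10), HSPA1B (0.19 ± 0.19) or HSPA1A (-0.02 ± 0.41) pass against Nap.

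In the HSP90 class, 5 of 8 genes fell against the vehicle control and none rose (62.5% called, beside 53.0% of all genes). HSP90AA1 (chr14:102080738-102139699) had 345, 380 and 366 CPM in P4 treated cultures, 908, 1070 and 1009 in vehicle controls, 960, 783 and 835 in controls and 811 and 757 with Nap. The highest P4 treated culture, at 380 CPM, lay below the lowest of the others, at 757. The log2 fold change was -1.47 ± 0.07 (adjusted p = 2.1e-08) against the vehicle control, -1.26 ± 0.10 against the control and -1.14 ± 0.08 against Nap.

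HSP90AB1 (chr6:44246166-44253888) had 736, 716 and 772 CPM in P4 treated, 1270, 1312 and 1291 in vehicle control and 1663, 1533 and 1592 in control cultures. All 3 groups were apart, with the vehicle controls between. It fell by 0.81 ± 0.06 on the log2 scale against the vehicle control (adjusted p = 3.7e-07) and by 1.13 ± 0.09 against the control (adjusted p = 2.2e-08). The ratio of HSP90AA1 to HSP90AB1 was 0.715 to 0.815 in the vehicle controls, 0.469 to 0.530 in the P4 treated cultures, 0.511 to 0.577 in the controls and 0.468 to 0.486 with Nap. The vehicle controls were the group with relatively more of the inducible form.

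The HSP90 partners that fell were AHSA1, which stimulates its ATPase (-0.74 ± 0.08, adjusted p = 6.1e-06), STIP1, which bridges HSP70 and HSP90 (-0.64 ± 0.08, adjusted p = 2.3e-05), and PTGES3 or p23, which stabilises the closed HSP90 dimer on steroid receptors. PTGES3 had 195, 209 and 201 CPM in P4 treated cultures, 276, 330 and 305 in vehicle controls, 325, 267 and 312 in controls and 291 and 271 with Nap. Each of the P4 treated cultures lay below all others, and the other 3 groups overlapped. Its log2 fold change was -0.61 ± 0.07 (adjusted p = 2.4e-05), and the counts of its 5 named pseudogenes were 14.6% of the summed counts.

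The kinase-client adaptor CDC37 (-0.08 ± 0.07), the progesterone receptor immunophilin FKBP4 (-0.21 ± 0.09, adjusted p = 0.0546) and CHORDC1 (0.06 ± 0.13) did not pass against the vehicle control. FKBP4 passed with upper-quartile scaling (-0.30, adjusted p = 0.00644), without P4 treated replicate 2 (-0.30) and under 2 other settings. Against the control all 8 genes of the class were called, 7 lower and CHORDC1 higher (0.45 ± 0.16, adjusted p = 0.0341), and the same numbers were called against Nap. Over all genes the shares called were 54.8% and 49.7%. The call of CHORDC1 against the control was lost with the replicate block (adjusted p = 0.0515) and without P4 treated replicate 2 (0.26, adjusted p = 0.0681), control replicate 1 (0.48, adjusted p = 0.0506) or control replicate 2 (0.32, adjusted p = 0.104). That of CDC37 was lost without P4 treated replicate 3, control replicate 1 or control replicate 2 (adjusted p = 0.0535 to 0.0593), and that of FKBP4 without P4 treated replicate 1 or control replicate 1 (adjusted p = 0.0503 and 0.0661). Against Nap, CDC37 was lost with DESeq2, with the replicate block and without Nap replicate 1, Nap replicate 2 or P4 treated replicate 3 (adjusted p = 0.0548 to 0.121). CHORDC1 was lost there without either Nap replicate (adjusted p = 0.0643 and 0.22), and FKBP4 without Nap replicate 1 or P4 treated replicate 3 (adjusted p = 0.234 and 0.0685). The transcript of PGR, the progesterone receptor itself, was at 18.4 to 27.6 CPM in P4 treated, 49.9 to 61.8 in vehicle control and 102 to 116 in control cultures.

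The small heat shock protein HSPB1 (chr7:76302544-76304295), which holds unfolding proteins without using ATP, had 9.13, 10.8 and 11.0 CPM after P4, 22.8, 21.7 and 18.8 in the vehicle controls, 22.5, 26.9 and 17.2 in the controls and 16.7 and 19.4 with Nap. The P4 treated cultures did not overlap with the others. It fell by 1.03 ± 0.12 against the vehicle control, by 1.13 ± 0.16 against the control and by 0.84 ± 0.14 against Nap on the log2 scale (adjusted p = 2.1e-05, 8.1e-06 and 5.9e-04).

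All 6 cytosolic J-domain genes were called against the vehicle control, 3 lower and 3 higher, where 53.0% of all genes were called. DNAJA1 (chr9:33025211-33039907), a main partner of HSPA8, had 69.2, 67.8 and 66.6 CPM in P4 treated, 185, 192 and 181 in vehicle control, 165, 153 and 171 in control and 166 and 150 in Nap cultures. The P4 treated cultures lay far below the rest and close together (67.9 ± 1.26 CPM, SD, n = 3). The log2 fold change was -1.47 ± 0.06 (adjusted p = 8.3e-09) against the vehicle control, -1.29 ± 0.09 against the control and -1.25 ± 0.09 against Nap.

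DNAJB4 (chr1:77979175-78017964), which works with HSP70 in the cytosol, had 48.0, 65.3 and 61.1 CPM in P4 treated, 32.0, 22.5 and 25.2 in vehicle control, 19.4, 18.7 and 19.8 in control and 17.2 and 18.1 in Nap cultures. The order of the groups was P4 treated, vehicle control, control and Nap with no overlap between neighbours. The log2 fold change was 1.15 ± 0.13 (adjusted p = 1.6e-05) against the vehicle control, 1.57 ± 0.12 (adjusted p = 5.5e-09) against the control and 1.69 ± 0.14 (adjusted p = 3.8e-06) against Nap. Nap and control did not differ by the test.

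DNAJB1, or HSP40, had 50.3, 69.0 and 55.5 CPM after P4, 73.7, 73.0 and 75.1 in the vehicle controls, 48.8, 53.3 and 45.5 in the controls and 45.7 and 45.9 with Nap. The vehicle controls were the highest group, and the P4 treated cultures overlapped with the controls. It fell by 0.36 ± 0.10 against the vehicle control (adjusted p = 0.0102), a call that was lost without P4 treated replicate 3 (adjusted p = 0.0620), and did not pass against the control (0.22 ± 0.11) or Nap (0.32 ± 0.13). Without P4 treated replicate 1 it passed against both, as higher (0.32, adjusted p = 0.0101, and 0.42, adjusted p = 7.2e-04). DNAJB6, which keeps polyglutamine proteins from aggregating, fell by 0.57 ± 0.10. DNAJB2 and DNAJA2 rose by 0.45 ± 0.12 and 0.23 ± 0.07, and DNAJA2 did not pass against the control (-0.02 ± 0.09). The DNAJA2 call against the vehicle control was lost under upper-quartile scaling (0.14, adjusted p = 0.102) and without P4 treated replicate 3, vehicle control replicate 2 or vehicle control replicate 3 (adjusted p = 0.0531 to 0.114). DNAJB2 did not pass against Nap (0.40 ± 0.16, adjusted p = 0.0563), and its call against the control (0.38 ± 0.13, adjusted p = 0.0162) was lost without P4 treated replicate 2 or 3 or control replicate 1 or 3 (adjusted p = 0.0559 to 0.0954).

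The BAG proteins end the HSP70 cycle by releasing its nucleotide, and their 3 genes did not move together. BAG3, which links HSP70 to HSPB8 and selective autophagy, had 9.03, 14.3 and 11.1 CPM in P4 treated, 20.1, 16.6 and 17.2 in vehicle control, 13.5, 9.24 and 11.1 in control and 13.4 and 8.38 in Nap cultures. As for HSPA1B, the vehicle controls were apart from the rest while the P4 treated and control cultures overlapped. BAG3 fell by 0.63 ± 0.15 against the vehicle control (adjusted p = 0.00427) and differed by 0.01 ± 0.17 from the control.

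BAG2, which holds back the ubiquitin ligase CHIP, had 85.7, 83.5 and 85.2 CPM in P4 treated, 72.5, 63.1 and 61.2 in vehicle control, 65.9, 53.0 and 68.8 in control and 65.1 and 53.7 in Nap cultures. It was higher in every P4 treated culture, by 0.37 ± 0.08 against the vehicle control (adjusted p = 0.00148) and by 0.42 ± 0.10 against the control. Since 44.2% of its exon bases are covered by genes on the other strand, RAB23 among them, and the strand setting of the counting is not given, its level is uncertain. BAG1, which couples HSP70 to the proteasome, fell by 0.55 ± 0.09 against the vehicle control, by 0.69 ± 0.11 against the control and by 0.67 ± 0.11 against Nap.

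The 6 mitochondrial genes split, with 3 higher, 1 lower and 2 that did not pass against the vehicle control (66.7% called, beside 53.0% of all genes). HSPA9 (chr5:138553756-138575724), the matrix HSP70 that pulls in and folds imported proteins, had 778, 1025 and 923 CPM after P4, 337, 325 and 338 in the vehicle controls, 413, 384 and 412 in the controls and 421 and 379 with Nap. The P4 treated cultures lay above all others. Its log2 fold change was 1.43 ± 0.09 (adjusted p = 9.2e-08) against the vehicle control, 1.15 ± 0.11 (adjusted p = 6.9e-08) against the control and 1.16 ± 0.11 (adjusted p = 1.1e-05) against Nap. The ratio of HSPA9 to HSPA8 counts was 0.199 to 0.208 in the vehicle controls, 0.307 to 0.339 in the controls and 1.21 to 1.89 in the P4 treated cultures, so that HSPA9 had fewer counts than HSPA8 in every untreated or vehicle culture and more in every P4 treated culture.

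DNAJA3, the mitochondrial J-domain partner of HSPA9, rose by 0.93 ± 0.08 against the vehicle control (adjusted p = 1.5e-06) and by 0.78 ± 0.10 against the control. GRPEL1, the nucleotide exchange factor of HSPA9, did not pass against the vehicle control (-0.06 ± 0.09) and was lower than in the control (-0.38 ± 0.10, adjusted p = 0.00497). TRAP1, the mitochondrial HSP90, passed in none of the comparisons of P4 treated cultures with all cultures in, and 29.3% of its exon bases are shared with genes on the other strand.

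HSPD1 (chr2:197486581-197516737) and HSPE1 (chr2:197499994-197503457) encode the HSP60 barrel and its HSP10 lid, which act as 1 machine. HSPD1 had 407, 514 and 489 CPM in P4 treated, 319, 326 and 317 in vehicle control, 400, 351 and 390 in control and 395 and 349 in Nap cultures. Its P4 treated cultures were the highest, the nearest control culture lay just below, and the log2 fold change was 0.54 ± 0.08 against the vehicle control (adjusted p = 1.2e-04), 0.28 ± 0.10 against the control (adjusted p = 0.0258) and 0.31 ± 0.10 against Nap (adjusted p = 0.0276). The call against the control was lost with upper-quartile scaling (0.22, adjusted p = 0.0581) and without P4 treated replicate 2 (0.22, adjusted p = 0.102), P4 treated replicate 3 (0.26, adjusted p = 0.106) or control replicate 2 (0.22, adjusted p = 0.0932). The call against Nap was lost with upper-quartile scaling (adjusted p = 0.0640), with the replicate block (adjusted p = 0.0789), and without Nap replicate 1 (adjusted p = 0.0652), Nap replicate 2 (adjusted p = 0.240) or P4 treated replicate 3 (adjusted p = 0.0998).

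HSPE1 was lower in the same cultures. It had 20.7, 14.9 and 14.1 CPM in P4 treated, 37.9, 43.9 and 41.2 in vehicle control, 55.7, 49.8 and 51.9 in control and 48.9 and 42.8 in Nap cultures. The P4 treated cultures were the lowest, the vehicle controls were below the controls, and the log2 fold change was -1.34 ± 0.13 (adjusted p = 5.4e-06) against the vehicle control, -1.69 ± 0.13 (adjusted p = 8.8e-09) against the control and -1.50 ± 0.15 (adjusted p = 1.6e-05) against Nap.

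The ratio of HSPD1 to HSPE1 counts was 7.06 to 7.51 in controls, 7.42 to 8.41 in vehicle controls, 8.08 to 8.17 with Nap and 19.7 to 34.7 in P4 treated cultures, and the P4 treated values overlapped with no other group. HSPE1 has 26 named pseudogenes, which took 22.0% of the summed counts, and HSPD1 has 17, which took 18.6%. With the pseudogenes added, HSPE1 summed to 19.7 to 26.3 CPM in P4 treated and 50.5 to 57.5 in vehicle control cultures, and HSPD1 to 496 to 618 and 387 to 402. The overlapping readthrough gene HSPE1-MOB4 had 0 counts in every library, and 14.2% of the HSPE1 exon bases lie opposite HSPD1 exons.

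**Figure D3:**
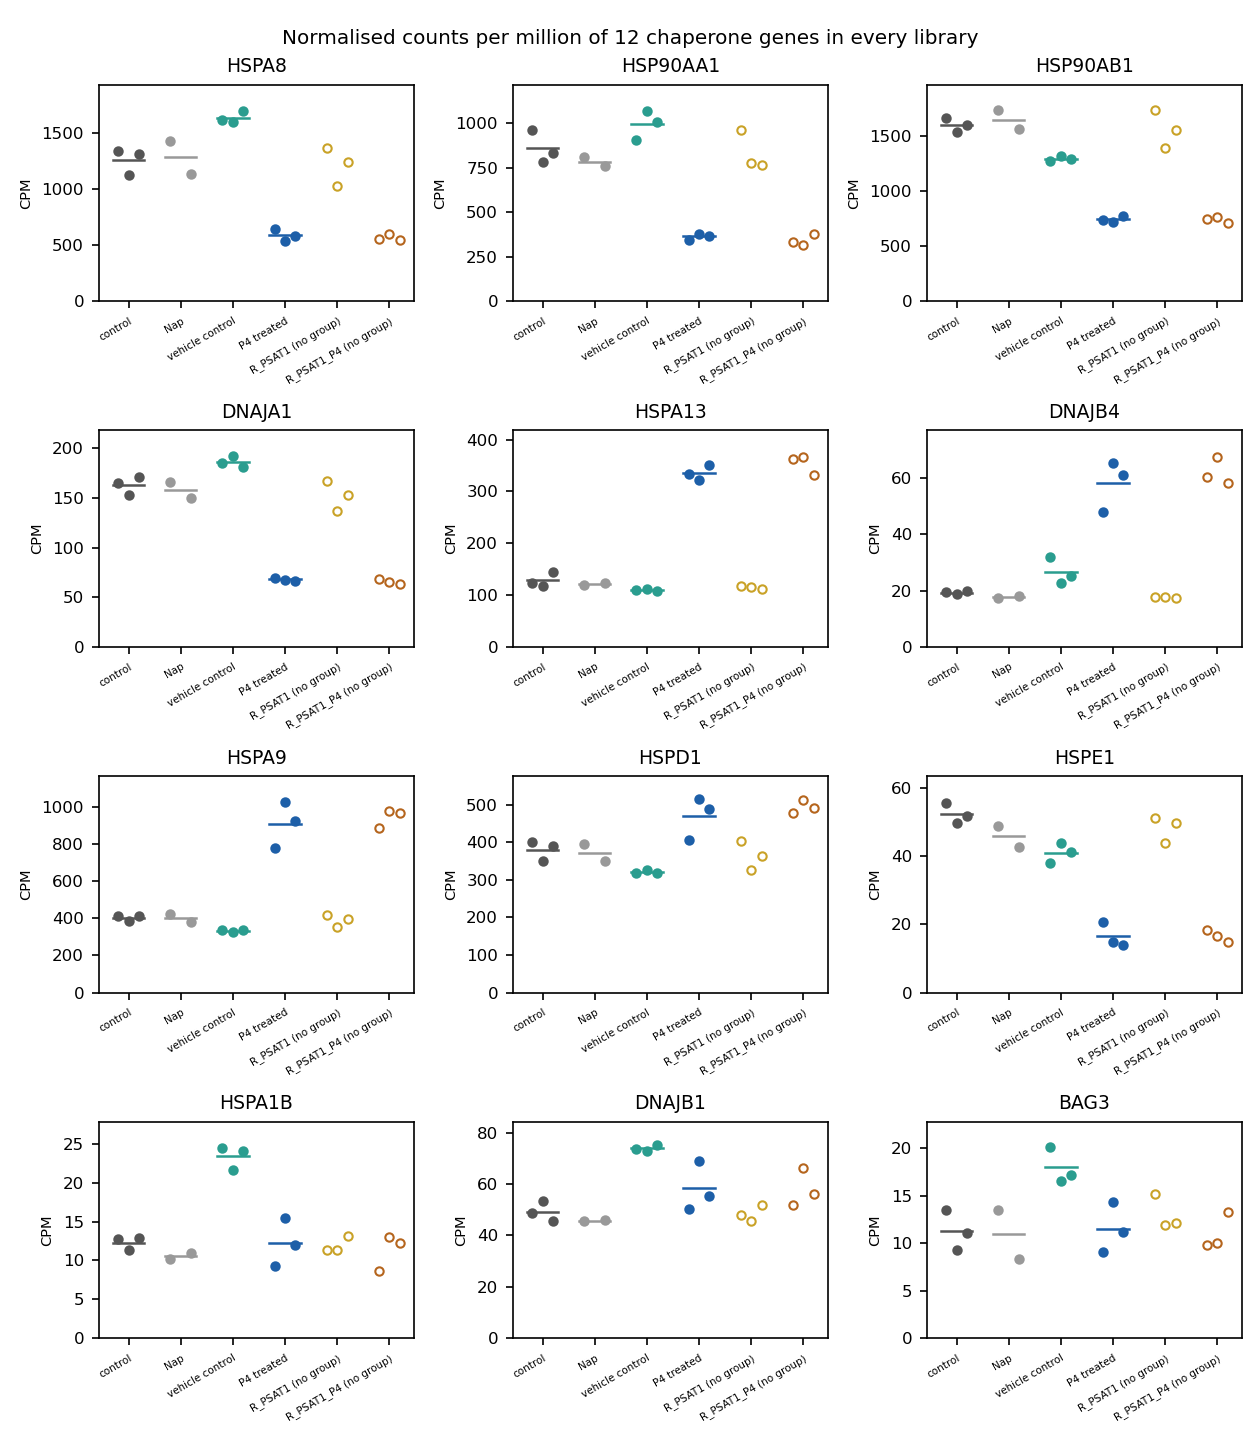
CPM of 12 chaperone genes in each library (points) with the group mean (line). Open points are the 6 libraries without a condition, named by their count table columns, and no mean is drawn for them. HSPA8, HSP90AA1, HSP90AB1, DNAJA1 and HSPE1 are lowest and HSPA13, DNAJB4, HSPA9 and HSPD1 highest in the P4 treated cultures among the 4 groups, while HSPA1B, DNAJB1 and BAG3 are highest in the vehicle controls.

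The TRiC or CCT chaperonin folds actin and tubulin, and 2 of its 4 subunits in the set fell against the vehicle control. CCT3 had 194, 185 and 188 CPM in P4 treated, 283, 275 and 269 in vehicle control, 352, 330 and 341 in control and 360 and 339 in Nap cultures. CCT2 had 288, 283 and 290, 392, 371 and 366, 455, 435 and 463, and 480 and 422 CPM in the same order. For both, the P4 treated cultures were lowest and the vehicle controls lay between them and the controls. CCT3 fell by 0.56 ± 0.06 (adjusted p = 9.8e-06) and CCT2 by 0.40 ± 0.06 (adjusted p = 1.1e-04) against the vehicle control, and by 0.87 ± 0.09 and 0.67 ± 0.09 against the control. TCP1 (-0.11 ± 0.06) and CCT5 (-0.04 ± 0.06) did not pass against the vehicle control and both fell by 0.42 ± 0.09 against the control. TCP1 passed against the vehicle control with upper-quartile scaling (-0.19, adjusted p = 0.0116). Since 30.1% of the CCT5 exon bases are covered by a gene on the other strand and the strand setting is not given, its level is uncertain. With the 4 other TRiC genes measured (CCT4, CCT6A, CCT7 and CCT8), 4 of 8 fell and none rose against the vehicle control, and 7 of 8 were lower in the P4 treated cultures than in the control. Over all genes, 26.5% and 28.0% were called lower in these 2 comparisons.

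Of the heat shock factors, HSF1 rose and HSF2 did not pass the test. HSF1, the main activator of the stress response, had 46.1, 52.4 and 46.9 CPM in P4 treated, 33.3, 36.2 and 34.5 in vehicle control, 36.8, 30.5 and 28.6 in control and 34.7 and 32.7 in Nap cultures. The P4 treated cultures were above all others, and the log2 fold change was 0.46 ± 0.08 (adjusted p = 6e-04) against the vehicle control, 0.58 ± 0.11 (adjusted p = 2.7e-04) against the control and 0.50 ± 0.10 (adjusted p = 0.00222) against Nap. HSF2, which acts in development and pairs with HSF1, had 23.4, 34.9 and 29.5 CPM in P4 treated, 21.0, 24.8 and 22.9 in vehicle control, 23.7, 25 and 29.4 in control and 25.9 and 23.5 in Nap cultures. The groups overlapped, and the difference of 0.33 ± 0.13 did not pass (adjusted p = 0.0546). It passed under 4 other settings, with adjusted p between 5.3e-04 without P4 treated replicate 1 and 0.0280 with all 4 groups in the fit.

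The vehicle control cultures themselves differed from the untreated control in 20 of 39 members (51.3%), 7 higher and 13 lower, where 22.6% of 16673 genes were called, 11.9% higher and 10.7% lower. No member moved by more than 1 log2 unit, the range was -0.37 to 0.92 and the median -0.13. The higher genes were HSPA1B (0.92 ± 0.11, adjusted p = 4.5e-06), BAG3 (0.65 ± 0.14), DNAJB1 (0.59 ± 0.08, adjusted p = 2.2e-05), HSPH1 (0.45 ± 0.11), DNAJB4 (0.43 ± 0.11), CHORDC1 (0.40 ± 0.10) and HSPA8 (0.38 ± 0.08). With all 4 groups in one fit, which pools their spread, HSPH1 (adjusted p = 0.357) and CHORDC1 (adjusted p = 0.110) no longer passed, and without vehicle control replicate 1 DNAJB4 did not (0.31, adjusted p = 0.0589). HSPA1A had the same size of difference (0.90 ± 0.33) and did not pass (adjusted p = 0.0535).

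The genes lower in the vehicle control were HSP90AB1 (-0.30 ± 0.08), HSPA4 (-0.26 ± 0.07), HSPA13 (-0.23 ± 0.08), DNAJA2 (-0.25 ± 0.08), the 4 TRiC subunits (-0.26 to -0.37) and the mitochondrial genes HSPA9, HSPD1, HSPE1, TRAP1 and GRPEL1 (-0.24 to -0.34). HSPA13 did not pass with all 4 groups in one fit (adjusted p = 0.0515). Without vehicle control replicate 1, HSPA13, HSPA4, HSPD1 and TRAP1 did not pass (adjusted p = 0.0519 to 0.106). The same held for HSPD1 and TRAP1 without control replicate 1 (adjusted p = 0.0745 and 0.0875), and for HSPA13 and DNAJA2 without control replicate 3 (adjusted p = 0.134 and 0.0605). The count of lower genes depended on the culture left out. It was 11, 16 and 14 without control replicate 1, 2 and 3, and 9 without vehicle control replicate 1. It was 5 without vehicle control replicate 2 and 6 without replicate 3, in place of 13, while the count of higher genes was 7 in both fits, so that the total went to 12 and 13. The members lost without vehicle control replicate 2 or 3 kept log2 fold changes of -0.20 to -0.32 in these fits. Over all genes, the lower calls went from 1787 to 871 and 811 in the same fits.

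For HSPA9, HSPD1, HSPA13 and DNAJA2 the vehicle control lay below the control and the P4 treated cultures lay above the vehicle control, so that their difference is larger against the vehicle control than against the control. For HSP90AB1, HSPE1, CCT2 and CCT3 the vehicle control lay between the others, so that the difference against the control is the larger one. The 3 comparisons share cultures, and these orders are a description.

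Against the untreated control, Nap alone gave 0 called members of 39 in edgeR, where 0 of 17166 genes (0%) were called. No member had an unadjusted p under 0.05, and DESeq2 called 0 members and 1 gene. Only 217 of all genes had such a p in edgeR, fewer than a test at this level gives when nothing differs, so this fit was cautious. Same-numbered control and Nap cultures had correlated deviations (0.307 and 0.351), which this fit left out. With 2 Nap cultures, their deviations from the group mean mirror each other. Control replicate 1, for example, had -0.307 with Nap replicate 2. The 2 values are therefore not independent and do not settle whether the numbers pair the cultures. With the replicate number as a block, 1208 genes had an unadjusted p under 0.05. In that fit 42 genes and 1 member were called, HSPB1 (-0.45, adjusted p = 0.00877). The block leaves few residual degrees of freedom with so few cultures. Without the block, the log2 fold changes of the members ran from -0.30 (HSPB1) to 0.08 (HSF1), with standard errors of 0.09 to 0.41. Smaller differences were not detectable there with 2 Nap cultures.

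**Figure D4:**
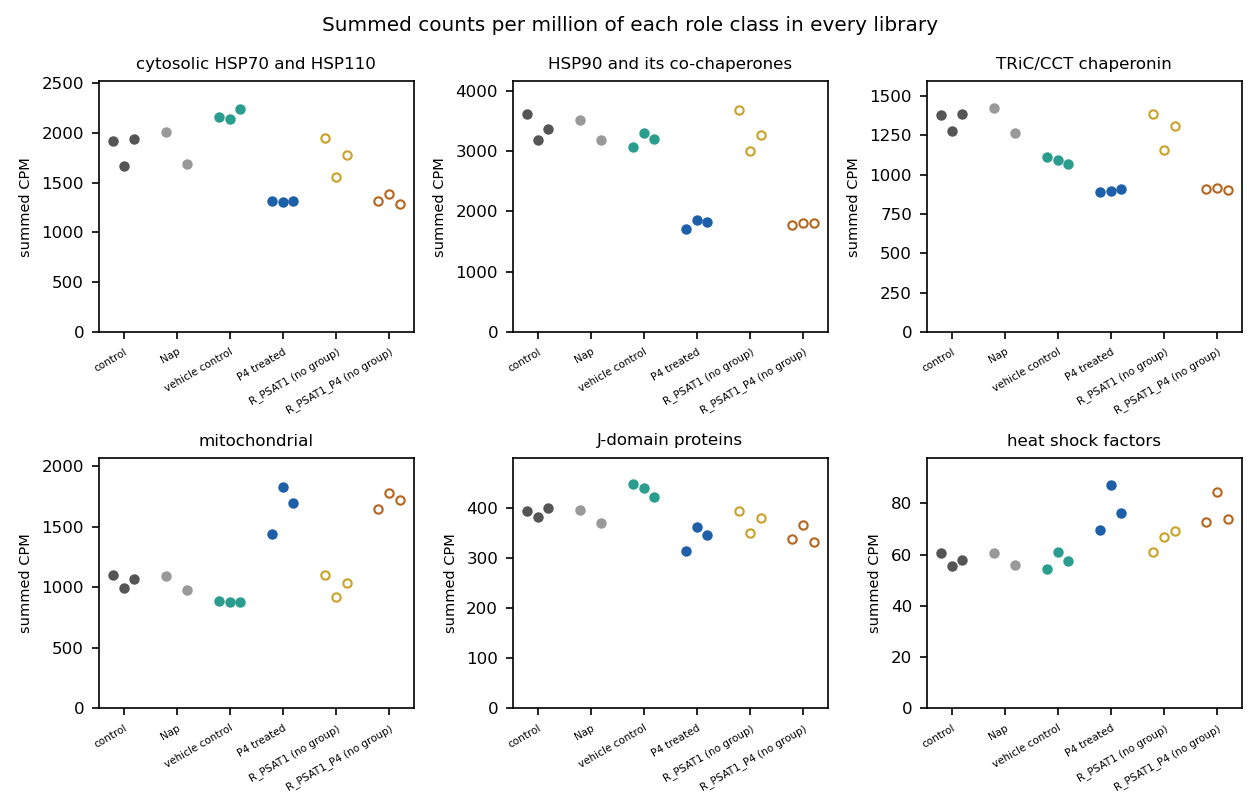
Summed CPM of the members of 6 role classes in each library (points), with open points for the 6 libraries without a condition. The HSP90 class summed to 1700 to 1854 CPM in P4 treated cultures and 3061 to 3300 in vehicle controls, and the mitochondrial class to 1441 to 1831 and 880 to 889.

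Summed over all 40 members, the P4 treated cultures held 5864 to 6474 CPM, the vehicle controls 7879 to 8063, the controls 7700 to 8630 and the Nap cultures 7658 to 8633. The HSP90 class held 1700 to 1854 CPM in P4 treated and 3061 to 3300 in vehicle control cultures. The HSP70 and HSP110 class held 1303 to 1319 and 2143 to 2240, and TRiC 889 to 910 and 1068 to 1109. The HSP70 and HSP110 sums include HSPA13, with 322 to 352 and 107 to 111 CPM, whose rise offsets part of the fall of the other genes. The mitochondrial class went the other way, with 1441 to 1831 CPM in P4 treated and 880 to 889 in vehicle control cultures. The BAG class did not separate the groups, with 123 to 131 and 124 to 135 CPM. These sums are dominated by the most abundant members and were given no test.

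The 3 P4 treated cultures were not alike across the members. Replicate 1 was the lowest of the 3 in 29 of 40 members and replicate 2 the highest in 25. These ranks were not counted over all genes, so whether they are particular to the members was not tested. Between replicates 1 and 2, HSPH1 was at 21.8 and 53.7 CPM, CHORDC1 at 78.7 and 125, HSPA1B at 9.32 and 15.5 and HSPA9 at 778 and 1025. HSPA8 and HSPE1 were highest in replicate 1. Leaving out replicate 1 gave 29 called members against the vehicle control, 18 lower and 11 higher, with HSF2 and TRAP1 (0.23, adjusted p = 0.00434) added.

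Of 70 further genes of the cytosolic and mitochondrial chaperone system, 57 were tested against the vehicle control and 30 were called, 16 higher and 14 lower, with a median of -0.02. The share called, 52.6%, was close to the 53.0% of all genes. The genes named had the lowest adjusted p among those that rose or fell, and FKBP5 was added. The mitochondrial protease and chaperone LONP1 (1.59 ± 0.10, adjusted p = 1.2e-07) and GRPEL2, the second mitochondrial exchange factor of HSPA9 (1.37 ± 0.06, adjusted p = 1.3e-08), rose. SUGT1, a co-chaperone of HSP90, fell (-0.73 ± 0.07, adjusted p = 3.3e-06). FKBP5, the immunophilin that opposes FKBP4 on steroid receptors and a known hormone target, rose by 0.25 ± 0.09 against the vehicle control (adjusted p = 0.0348) and by 0.76 ± 0.11 against the control. HSPA6, the strictly inducible HSP70, was named after its values were seen. It had 5 to 11 counts in P4 treated, 0 to 2 in vehicle control and 0 in control libraries, and was not tested.

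The 16 ER chaperones, which were outside the set, gave 10 called genes against the vehicle control, 9 higher and 1 lower, with a median log2 fold change of 0.32. The share called was 62.5%, beside 53.0% of all genes, of which 26.6% were called higher. Against the control and against Nap, 7 of the 16 were called in each (43.8%), 6 higher and 1 lower. Of all genes, 54.8% and 49.7% were called there, and 26.8% and 24.8% were called higher. DNAJB9 (2.81 ± 0.23, adjusted p = 1.9e-05) and the ER HSP70 HSPA5 (1.85 ± 0.47, adjusted p = 0.0259) were among the higher ones, and CRELD2 was lower (-0.59 ± 0.12), each named after its values were seen.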

How the data were processed

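Ishikawa cells were sequenced as stranded total RNA (75 bp single-end reads). The authors trimmed reads with Cutadapt, aligned them with Subread, kept unique alignments and counted them per GENCODE 31 gene with featureCounts. The deposited table holds raw counts per gene, with no normalization. Tool versions and the strand setting are not given in the sources used here. Unique alignment can lower the counts of genes with near-identical copies or pseudogenes. Gene names and coordinates came from GENCODE 29 (GRCh38), where 10 of the 40 members had the same identifier version, and a name table gave 2054 of the 60662 genes.

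Each comparison was fitted across all genes in edgeR 4.0.16 (R 4.3.3) on its own groups, with TMM scaling, filterByExpr (minimum count 10), robust quasi-likelihood and Benjamini-Hochberg adjustment at 0.05. CPM values were TMM scaled over all 17 libraries, with Python 3.11.15. Scripts were tested on simulated data. Alternatives were DESeq2 1.42.0, RLE and upper-quartile scaling, other filters, 1 fit over the 4 groups, a replicate block and leaving out each culture. The members, gene lists and tests were chosen with earlier results of these data known. Values of each culture were given for HSF1, HSF2, members called with an absolute log2 fold change of at least 1 against the vehicle control and the called members at both ends of each role class. HSPA1B, HSP90AB1, HSPH1, DNAJB1 and HSPD1 were added after their values were seen. Per the labels, control, vehicle control and P4 treated groups had 3 samples each and Nap 2. The 6 samples whose titles and columns disagree entered no test. The result of 1 gene of the further chaperone list is not reported here.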

Additional observations from a re-analysis of the deposited data

Results flagged for a closer look

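The 6 libraries whose titles contradict their column names were used in no comparison, and 3 chaperone genes stood out in them because every library of 1 column set reached more than 2 times the highest untreated control. In the 3 columns headed R_PSAT1_P4, HSPA13 was at 331 CPM or more, where the highest control had 144. In the same columns HSPA9 was at 886 CPM or more, where the highest control had 413. DNAJB4 was at 58.3 CPM or more there, where the highest control had 19.8. In the 3 columns headed R_PSAT1, HSPA13 ran from 113 to 118, HSPA9 from 353 to 419 and DNAJB4 from 17.4 to 17.8 CPM. Which of these libraries received P4 is not settled by the labels, and no condition was read from the values.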

How the results depend on the processing

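Of the 15 members named by rule, 191 of 195 alternative values of P4 treated against vehicle control kept their direction and their side of the threshold, none turned direction, and the other 4 were all HSF2, which passed. The count of members called was 25 to 29 against the vehicle control when 1 culture was left out, 25 to 30 for P4 treated against control and 18 to 30 for P4 treated against Nap. For vehicle control against control it was 12 to 23, with 12 without vehicle control replicate 2, 13 without replicate 3 and 23 without control replicate 2 or 3. Each of these fits has fewer samples. The genes lost both without vehicle control replicate 2 and without replicate 3 were CCT2, DNAJA2, GRPEL1, HSPA13, HSPA4, HSPD1 and TRAP1. For Nap against control it was 0 in each such fit. Over all genes, vehicle control against control gave 3763 calls, 2589 with DESeq2, 2038 without vehicle control replicate 2 and 1908 without replicate 3, and P4 treated against Nap gave 8446, with 5606 without Nap replicate 1 and 5502 without Nap replicate 2. Nap against control gave 0, and 0 to 5 under the other settings but the replicate block. With the replicate number as a block, 1 member was called for Nap against control in place of 0, and the counts were 29 for P4 treated against vehicle control, 20 for vehicle control against control, 28 for P4 treated against control and 24 for P4 treated against Nap. Same-numbered P4 treated and vehicle control samples had correlated deviations of -0.0429 to 0.0512, so the numbers did not pair them. For control and Nap the 2 pairs had 0.307 and 0.351, which are not independent because the deviations of 2 Nap cultures mirror each other. With upper-quartile scaling the median of all genes moved from -0.01 to -0.10 against the vehicle control and 30 members were called, 8 higher and 22 lower. Depth limited HSPB8 and HSPA6, and HSPA1A had 4 to 30 counts in the vehicle control libraries.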

Other observations

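Other chaperone genes in the 6 libraries without a condition are given as values. HSPA8 was at 558, 596 and 550 CPM in the columns headed R_PSAT1_P4 and at 1370, 1034 and 1240 CPM in those headed R_PSAT1. HSP90AA1 was at 330, 315 and 376 CPM and at 961, 776 and 768 CPM, and DNAJA1 at 68.2, 65.0 and 63.8 CPM and at 167, 137 and 153 CPM, in the same order. The ratio of HSPD1 to HSPE1 counts was 26.1 to 32.8 in the first set of columns and 7.33 to 7.89 in the second. HSF1 was closer between the sets, with 44.7, 51.0 and 43.9 CPM and 37.9, 42.0 and 45.8 CPM.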
